A study of Mus musculus with 384 samples.

Results

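Eomes, the gene for the T-box transcription factor eomesodermin, was followed in single mouse cells of 2 formative stem (FS) cell lines and 2 epiblast stem cell (EpiSC) lines. It is 1 of 31617 genes in the count table, and it was chosen by its level in these same cells, which earlier results gave as several times higher in the FS lines. Its difference between FS cells and EpiSCs is therefore described here with no test. The FS lines 5ar1 and 5ar2 were grown in A3XR, a medium with a low dose of activin A, the tankyrase inhibitor XAV939, which blocks canonical Wnt signalling, and a retinoic acid receptor inverse agonist. The EpiSC line AFX6 was grown in AFX, with activin, Fgf2 and XAV939, and the EpiSC line AF32 was grown in AF, with activin and Fgf2 and no Wnt inhibitor. Such lines come from post-implantation mouse epiblast, and the strain of each of these lines is not given in the sources used here. Each EpiSC medium is represented by 1 line, so line and medium cannot be told apart, and lines rather than cells are the replicates.

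Each line gave 96 cells sequenced by Smart-seq2, a full-length method that sorts 1 cell into each well and carries no molecular identifiers. Cells with at least 3000000 counts were kept, which left 90, 90, 66 and 80 cells of 5ar1, 5ar2, AFX6 and AF32, or 326 of 384 in all. The kept cells held between 3022666 and 6686007 counts, with line medians between 4401633 and 5069883. Levels are counts per 1000000 counts of the cell (CPM), and at these median depths 3 counts equal between 0.592 and 0.682 CPM. Pou5f1, the gene for the pluripotency factor Oct4, stood at 644, 490, 529 and 533 CPM in 5ar1, 5ar2, AFX6 and AF32. Fgf5, an early post-implantation epiblast gene, stood at 229, 272, 30.7 and 44.9 CPM. Cdh1, the gene for E-cadherin, stood at 89.6, 54.2, 171 and 21.9 CPM.

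Eomes is best known for its part in gastrulation. Nodal and activin signal through Smad2 and Smad3 with the DNA-binding partner FoxH1, and Eomes is among the genes they switch on in the posterior epiblast, where the protein helps to start the mesendoderm programme and the epithelial to mesenchymal transition of the primitive streak. Eomes also acts in trophoblast stem cells, in the visceral endoderm and, later, in neural progenitors and lymphocytes, so its RNA alone does not name a cell type. Its T-box DNA-binding domain is shared with T (Brachyury), Tbr1, Tbx6 and the rest of the family.

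Eomes (ENSMUSG00000032446) lies on the plus strand of mouse chromosome 9, at 118478212 to 118486132 in GRCm38, with 4155 bases of merged exons. The 250 bases before the RefSeq start site, chr9:118477939-118478188 of GRCm38.p6 on the plus strand, are shown with the cores of the TATA box and the CCAAT box in capitals. The GENCODE transcript used below for the coding sequence begins further downstream, at 118478344. Where transcripts begin in these cells was not measured.

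Eomes, 250 bases before the start: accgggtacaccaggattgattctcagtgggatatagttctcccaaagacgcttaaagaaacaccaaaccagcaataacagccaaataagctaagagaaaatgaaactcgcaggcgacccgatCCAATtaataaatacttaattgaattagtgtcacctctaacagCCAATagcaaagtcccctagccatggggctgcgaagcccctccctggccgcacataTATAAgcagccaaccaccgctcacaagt

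The letters TATAA were found once on either strand, 28 bases before the RefSeq start, and TATAA is held by 22.8% of the 32851 RefSeq windows of the same length. CCAAT was found at 127 and 84 bases before the start, and 33.8% of windows hold it. The letters TCACAC (a T-box core), CAGAC (the Smad box) and AATCCA (a FoxH1 core) were not in this window on either strand, against shares of 12.3%, 42.2% and 10.1% of all windows. These are matches of letters in 250 bases and not sites of binding.

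The family resemblance matters for the counts, since a read that fits 2 genes equally well is not counted. Reads were 101 bases long and paired. The longest exact stretch that the Eomes coding sequence, 2124 bases over 6 exons, shares with any GENCODE transcript of the other 16 T-box genes listed was 26 bases, with Tbx1, and the shortest of the 16 longest stretches was 11 bases. The 3 stretches below show the longest match, the longest in the first exon and the match with T, and every one is coding.

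Eomes and Tbx1, exon 5, chr9:118482257-118482282: aaccccttcgccaaaggcttccggga

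Eomes and Tbx15, exon 1, chr9:118479521-118479538: gagatgatcatcaccaaa

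Eomes and T, exon 3, chr9:118481307-118481318: cccactggatga

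Every shared stretch was much shorter than a read. The 3′ end of Eomes overlaps the antisense gene Gm33460 by 574 bases, and the counting is not stated to have used strand, so reads in that stretch cannot be assigned to one of the pair. Gm33460 was counted at 1.8, 1.2, 1.6 and 0.675 CPM in 5ar1, 5ar2, AFX6 and AF32, which is low beside Eomes in the FS lines.

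Eomes was detected as a mid-level transcript in both FS lines and as a rare one in both EpiSC lines. Summed over the kept cells, 26399 Eomes counts gave 61.3 CPM in 5ar1, and 20942 counts gave 48.2 CPM in 5ar2. AFX6 held 2203 counts, or 6.6 CPM, and AF32 held 2079 counts, or 5.84 CPM. The exact 95% Poisson intervals cover the counting error of reads only. They ran from 60.5 to 62.0, from 47.5 to 48.8, from 6.3 to 6.9 and from 5.59 to 6.1 CPM. The FS lines averaged 54.7 ± 9.27 CPM (SD, n = 2 lines) and the EpiSC lines 6.2 ± 0.551 CPM (SD, n = 2 lines), a ratio of 8.78. The 4 pairs of 1 FS and 1 EpiSC line gave folds between 7.27 and 10.5, and the ranges of the groups did not overlap. Within the groups, 5ar1 stood 1.3-fold above 5ar2, and the EpiSC lines differed by less than 1 CPM.

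Among the 11727 genes, Eomes included, that reached 5 CPM in any line and had a count in EpiSCs, 77 had a higher ratio of the FS mean to the EpiSC mean, or 0.657%. Since Eomes was chosen for this difference, a high rank was given by the choice and is a description only. By level, Eomes ranked 3483 in 5ar1 and 4022 in 5ar2 among all genes of the table.

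**Figure D1:**
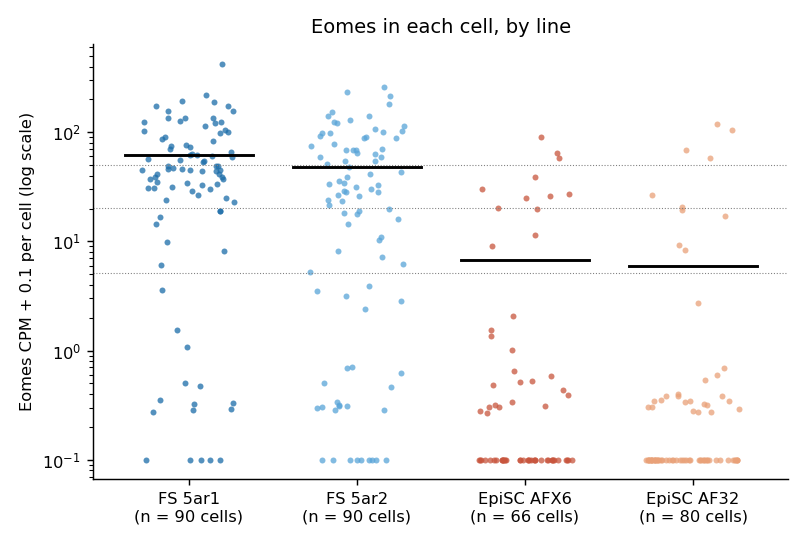
Eomes CPM plus 0.1 in each kept cell on a log axis, by line, with 1 point per cell, a black bar at the CPM of the summed counts and dotted lines at 5, 20 and 50 CPM. Most FS cells lie above 20 CPM, few cells lie between 1 and 5 CPM, and most EpiSCs sit at the bottom with 12 AFX6 and 10 AF32 cells above 5 CPM.

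The difference lay mostly in how many cells carried Eomes RNA. In 5ar1, 74 of 90 cells exceeded 5 CPM of Eomes, and in 5ar2 63 of 90 did. In AFX6 the number was 12 of 66, and in AF32 it was 10 of 80. These shares were 82.2% (exact Clopper-Pearson 95% interval 72.7 to 89.5), 70.0% (59.4 to 79.2), 18.2% (9.76 to 29.6) and 12.5% (6.2 to 21.8). Above 20 CPM there were 67, 51, 9 and 6 cells, or 74.4% (64.2 to 83.1), 56.7% (45.8 to 67.1), 13.6% (6.4 to 24.3) and 7.50% (2.8 to 15.6). Above 50 CPM there were 37, 33, 3 and 4 cells, or 41.1% (30.8 to 52.0), 36.7% (26.8 to 47.5), 4.55% (0.947 to 12.7) and 5.00% (1.4 to 12.3). These intervals treat cells as draws from 1 culture and are no test between the groups.

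The mean share above 5 CPM was 4.96 times higher in FS lines than in EpiSC lines. The cells above 5 CPM differed less, with means of 73.9, 67.4, 35.0 and 45.1 CPM, a ratio of 1.8 between the group means. Their medians were 51.0 and 53.9 CPM in the FS lines against 26.4 and 23.5 CPM in the EpiSC lines.

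The values fell into a low and a high range with few cells between. In 5ar1, 14 cells had 1 CPM or less and 2 had between 1 and 5 CPM, and in 5ar2 these numbers were 22 and 5. In AFX6, 51 cells had 1 CPM or less and 3 had between 1 and 5, and in AF32 there were 69 and 1. Around the 5 CPM threshold, 1, 1, 0 and 0 cells lay within 20% of it, so the count of cells above it hardly depends on the exact place of the threshold. Around 50 CPM, 18 cells of 5ar1 and 8 of 5ar2 lay within 20%, and that count depends on it more.

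**Figure D2:**
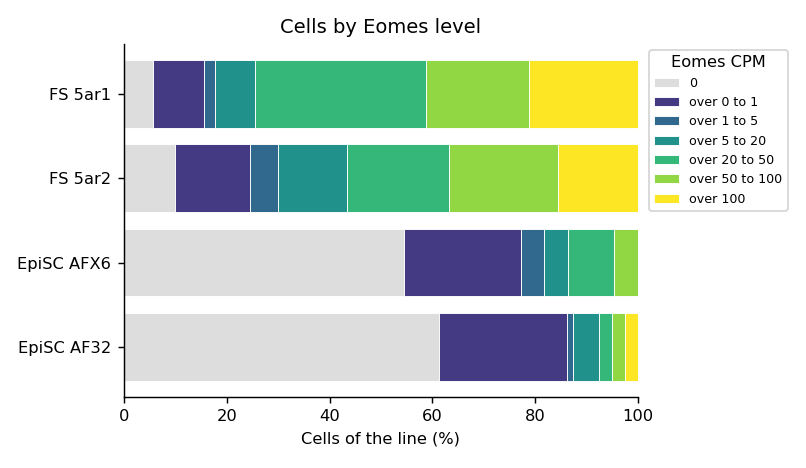
Percent of the kept cells of each line in 7 ranges of Eomes CPM, stacked from 0 on the left to over 100 CPM on the right. Cells over 100 CPM numbered 19 and 14 in the FS lines 5ar1 and 5ar2 and 0 and 2 in the EpiSC lines AFX6 and AF32, and cells with no Eomes count numbered 5, 9, 36 and 49.

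Per cell, the lowest value was 0 in every line. The median was 45.0 CPM in 5ar1 and 28.2 CPM in 5ar2, and it was 0 in both EpiSC lines. The highest cell stood at 424 CPM in 5ar1 and at 262 CPM in 5ar2. The highest AFX6 cell reached 89.8 CPM and the highest AF32 cell 118 CPM. A few cells carried most of the EpiSC signal: the 5 cells with most Eomes counts held 68.3% of them in AFX6 and 83.6% in AF32, against 23.2% in 5ar1 and 25.1% in 5ar2. The coefficient of variation over cells was 1.06, 1.2, 2.6 and 3.53 in 5ar1, 5ar2, AFX6 and AF32. Among 6405 genes that averaged 20 CPM or more in both FS lines, 18.0% varied more than Eomes in 5ar1 and 5.65% in 5ar2, where the median coefficients were 0.740 and 0.687. Eomes was thus less even between FS cells than Otx2 (0.545 and 0.546), the gene for a homeobox factor of the post-implantation epiblast, and about as uneven as Pou3f1 (1.2 and 1.1), the gene for the POU factor Oct6.

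The depth of a cell moved little with its Eomes value. Spearman's rho between Eomes CPM and total counts was -0.079, 0.13, -0.14 and -0.14 over the cells of the 4 lines, and with the number of detected genes it was 0.16, 0.24, -0.010 and 0.15. Reads carried over between wells would raise low values. In AFX6, 4 Y-linked genes summed to 0.547 CPM against a mean of 197 CPM in the other lines, or 0.278%. The same share of the FS Eomes level would be 0.152 CPM. Eomes in AFX6 and AF32 was 43.5 and 38.4 times that value, while the cells with 1 CPM or less averaged between 0.0791 and 0.214 CPM and cannot be told from it. The share takes AFX6 to express no Y-linked genes and covers only reads that reached AFX6 from other lines. Carry-over into the other lines, or between wells of 1 line, was not measured.

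The 58 cells under the depth threshold were not used to pick Eomes. The 6 cells of 5ar1 gave 44.6 CPM (exact Poisson interval 39.7 to 49.9), and 4 of them exceeded 5 CPM. Among these 4, the cell with 73059 counts in all held 1 Eomes count, or 13.7 CPM. At that depth 5 CPM is less than 1 count, so the threshold means little there. The 6 cells of 5ar2 gave 12.8 CPM (10.7 to 15.2), with 2 cells above 5 CPM. The 30 cells of AFX6 gave 13.5 CPM (12.5 to 14.6), with 4 above 5 CPM and a single cell at 316 CPM. The 16 cells of AF32 gave 0.104 CPM (0.0215 to 0.305), with none above 5 CPM, a count of 0 that allows a share of up to 18.8% as 3 cells of 16 and up to 20.6% by the exact Clopper-Pearson interval. In these few shallow cells 5ar2 and AFX6 overlapped in level. The share above 5 CPM was 66.7% in 5ar1, 33.3% in 5ar2 and 13.3% in AFX6. The exact Clopper-Pearson intervals of these shares were 22.3 to 95.7, 4.33 to 77.7 and 3.76 to 30.7. They overlapped, so these cells do not separate the lines by share.

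The well-expressed neighbours of Eomes on chromosome 9 were not higher in FS lines. Of 14 other counted genes within 500000 bases of it, Azi2, Cmc1 and Golga4 reached 5 CPM in all 4 lines. Azi2, which acts in innate immune signalling, stood at 59.4, 43.5, 55.2 and 66.7 CPM in 5ar1, 5ar2, AFX6 and AF32, an FS to EpiSC ratio of 0.844. Golga4, a Golgi golgin, gave 53.7, 44.7, 65.9 and 58.9 CPM, a ratio of 0.788, and Cmc1, a mitochondrial assembly factor, gave a ratio of 0.653. Among the rest, Itga9 and Ctdspl had ratios of 2.1 and 2.3 at levels of at most 3.59 CPM. Over 382 protein-coding genes of chromosome 9, the typical level relative to the other autosomes was 1.04, 1.00, 1.00 and 1.00 in the median cell of 5ar1, 5ar2, AFX6 and AF32, and 1 of the 326 cells exceeded 1.2.

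The rest of the T-box family was nearly silent, apart from Mga. Of the 16 other family genes listed, 13 were in the table and 3 are not analysed here. Those reaching 5 CPM in any line were T, Tbx6 and Mga. Per kilobase of merged exons, the scale on which genes can be compared, Eomes stood at 14.7, 11.6, 1.6 and 1.4 CPM per kb in 5ar1, 5ar2, AFX6 and AF32. Mga, a Myc-network repressor with a T-box, gave 3.71, 3.48, 4.04 and 4.33 CPM per kb, so Eomes was the most abundant T-box transcript in the FS lines and stood under Mga in the EpiSC lines. T, the classical streak gene, gave 0.144, 0.179, 0.382 and 39.1 CPM. A single AF32 cell with 2369 CPM held 99.1% of the T counts of AF32, and that cell had 0.172 CPM of Eomes and 1.9 CPM of Pou5f1. Without it AF32 stood at 0.357 CPM. Tbx6, a presomitic mesoderm factor, gave 0.343, 0.258, 0.878 and 5.28 CPM.

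Across all genes, the edgeR quasi-likelihood test on the summed counts of the lines called 0 of 22605 genes other than Eomes in either direction (0% higher and 0% lower in FS lines, at an adjusted p under 0.05 and a log2 fold change over 1.4), with 3636 genes at an unadjusted p under 0.05 and a smallest adjusted p of 0.19. DESeq2 on the same sums called 874 genes higher and 932 lower, and limma called 0. The 2 lines of a group thus gave no call in the main test, which had little power here and does not show that no gene differed. The lists below are described by a rule of size: both FS lines at least 2-fold above both EpiSC lines, or the reverse, among the 11727 genes other than Eomes that reached 5 CPM in any line. Of those genes 786 met the rule in either direction (6.7%), 326 of them as higher and 460 as lower in FS lines.

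Among the inputs of Eomes, several genes of the Nodal pathway were lower in the FS lines, most receptor and Smad genes lay closer together, and 1 ligand gene, Gdf3, was higher. Of 25 listed Nodal and activin genes, 21 were in the table and 19 reached 5 CPM in any line, of which 5 met the rule (26.3%), all as lower in FS lines. The median log2 ratio of the 19, on log2(CPM + 1), was -0.36, against -0.06 over all genes. The 5 were 2 ligand genes, Nodal and Inhba, the co-receptor gene Tdgf1 (Cripto), and the feedback inhibitors Lefty1 and Lefty2. Nodal gave 5.46, 5.32, 49.0 and 94.7 CPM in 5ar1, 5ar2, AFX6 and AF32, and the FS and EpiSC lines did not overlap. Tdgf1 gave 27.4, 36.7, 839 and 1398 CPM, and Lefty1 gave 4.89, 10.7, 687 and 3818 CPM. Eomes and these 5 genes thus differed in opposite directions between the groups. Gdf3, a ligand that also uses the co-receptor, went the way of Eomes, at 14.1, 52.2, 0.204 and 8.02 CPM, a ratio of the FS to the EpiSC mean of 8.06. It missed the rule because 5ar1 was less than 2-fold above AF32. Fst, the gene for the activin-binding protein follistatin, gave 9.44, 8.44, 1.00 and 24.1 CPM, with FS lines inside the EpiSC range, and Furin, a protease that processes these ligands, gave 9.63, 7.93, 10.4 and 12.6 CPM.

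The receptor genes over 5 CPM and the Smad genes that carry the signal differed by less than 2-fold between the group means. Acvr1b, the type I receptor that activin and Nodal share, gave 7.48, 7.36, 5.90 and 4.04 CPM. The type II receptor genes Acvr2a and Acvr2b gave 8.09, 11.3, 9.10 and 13.0 CPM and 47.8, 38.8, 34.7 and 34.7 CPM. Foxh1 gave 209, 218, 267 and 142 CPM, with FS lines inside the EpiSC range. Smad2 gave 54.4, 47.0, 40.9 and 38.5 CPM, Smad3 18.1, 14.2, 18.9 and 24.2 CPM, and Smad4 31.4, 26.1, 25.8 and 34.3 CPM. Their edgeR adjusted p-values lay at 0.525 for Smad2, 0.602 for Smad3, 0.949 for Smad4 and 0.979 for Foxh1, which does not show that they were equal.

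The negative regulators of the pathway were mixed. The inhibitory Smad gene Smad7 gave 10.3, 6.9, 16.3 and 21.5 CPM and Skil, a Smad repressor, gave 44.4, 30.6, 77.4 and 75.5 CPM. Both were lower in both FS lines, by 2.2-fold and 2.0-fold between the group means, and both missed the rule because 5ar1 was less than 2-fold under an EpiSC line. Ski, the related repressor, gave 21.1, 17.4, 18.5 and 22.2 CPM, and Trim33, a ubiquitin ligase that acts on Smad complexes, gave 25.2, 17.7, 16.0 and 20.6 CPM.

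The Wnt genes, the other input to the streak, moved in both directions. Of 15 listed, 14 were in the table and 6 reached 5 CPM in any line, of which 1 met the rule as higher and 1 as lower in FS lines. Lef1, a nuclear effector of Wnt, was the higher one, at 45.5, 33.5, 13.4 and 14.2 CPM. Wnt3, the streak-inducing ligand, was the lower one, at 6.4, 4.17, 17.8 and 14.1 CPM. Tcf7, a second nuclear effector, gave 17.3, 11.2, 18.4 and 42.2 CPM, and Nkd1, a feedback inhibitor, gave 9.19, 7.24, 10.2 and 46.4 CPM. Both FS lines lay under both EpiSC lines in these genes, by less than 2-fold for AFX6. Wnt5b, a ligand, gave 3.29, 3.49, 5.45 and 3.74 CPM, and Sp8, a zinc finger gene, gave 0.443, 1.4, 0.328 and 6.5 CPM. Axin2, a general Wnt target, stood at 2.7, 1.05, 2.7 and 2.5 CPM, with overlapping groups. The list summed to 86.7, 64.1, 69.0 and 148 CPM in 5ar1, 5ar2, AFX6 and AF32.

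**Figure D3:**
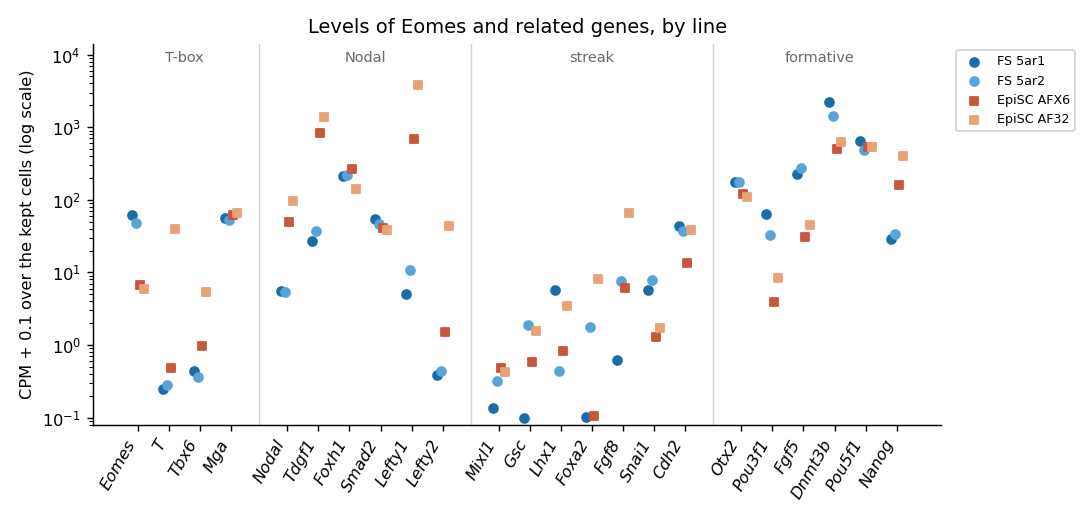
CPM plus 0.1 of the summed kept cells on a log axis for Eomes and selected genes of the T-box, Nodal, streak and formative lists, with circles for the FS lines and squares for the EpiSC lines. Eomes, Snai1, Pou3f1, Fgf5 and Dnmt3b lie higher in both FS lines, Nodal, Tdgf1 and Lefty1 lie higher in both EpiSC lines, and Mixl1 stays under 0.5 CPM in every line.

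Genes that act with or after Eomes in the streak were uneven, with some near 0 in every line and others expressed throughout. Of 21 listed, 18 were in the table and 9 reached 5 CPM in any line, of which 3 met the rule (33.3%), 1 as higher and 2 as lower in FS lines. Their median log2 ratio on log2(CPM + 1) was -1.42, against -0.06 over all genes. T, Tbx6, Foxa2 and Flrt3 reached 5 CPM in AF32 only, so the filter itself favours a negative median. The 18 genes summed to 79.4, 80.6, 47.5 and 235 CPM in 5ar1, 5ar2, AFX6 and AF32. Both FS lines thus stood above AFX6 and under AF32. Mixl1, a homeobox gene of the streak, gave 0.0371, 0.218, 0.379 and 0.326 CPM, and at most 2 cells of any line exceeded 5 CPM. Gsc, the gene for the organizer factor goosecoid, gave 0, 1.8, 0.490 and 1.5 CPM. Foxa2, of the anterior streak and endoderm, gave 0.00232, 1.7, 0.00601 and 7.91 CPM, with 13 AF32 cells and 1 FS cell above 5 CPM. Fgf8, a streak ligand, gave 0.529, 7.50, 6.1 and 66.3 CPM.

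The gene higher in FS lines was Snai1, a repressor of E-cadherin, at 5.56, 7.78, 1.2 and 1.6 CPM. The 2 lower ones were T and Tbx6, which also stand in the T-box list. The call of T rests on the single AF32 cell above, since without it AF32 was less than 2-fold above 5ar2. The streak genes with the highest FS levels were Cdh2, the gene for N-cadherin, at 43.4, 36.6, 13.5 and 38.4 CPM, and Apela, the gene for a peptide ligand of the apelin receptor, at 16.6, 18.1, 19.4 and 44.4 CPM. Neither met the rule, and Cdh2 is expressed in many tissues. Lhx1, a homeobox gene of the anterior streak, gave 5.67, 0.340, 0.719 and 3.31 CPM, and Flrt3, the gene for an adhesion protein, gave 4.67, 2.6, 2.9 and 22.1 CPM.

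Within the FS lines, the summed level of the streak genes was similar in cells with little and with much Eomes, and Cdh2 and Apela made up most of it. The summed level over the 18 counted genes was 75.5 CPM in the 16 cells of 5ar1 with 5 CPM of Eomes or less, and 78.1 CPM in the 37 cells above 50 CPM. In 5ar2 it was 78.6 CPM in 27 cells and 82.4 CPM in 33 cells. Cdh2 gave 37.8 CPM in the low and 46.1 CPM in the high cells of 5ar1, and 34.1 and 29.9 CPM in those of 5ar2. Apela gave 16.3 and 14.1 CPM in 5ar1 and 20.2 and 16.2 CPM in 5ar2. The sum therefore says little about the rest of the list. The single cells overlapped throughout, from 0.371 to 329 CPM against 0.236 to 597 CPM in 5ar1. Spearman's rho of the sum with Eomes was -0.064 over 90 cells of 5ar1 and -0.044 over 90 cells of 5ar2.

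In the few EpiSCs with Eomes the streak genes gave mixed values. Of the 9 AFX6 and 6 AF32 cells with more than 20 CPM of Eomes, 0 exceeded 5 CPM of Mixl1, Gsc, Lhx1 or Foxa2, and 1 AF32 cell exceeded it for T, at 19.4 CPM with 104 CPM of Eomes. A count of 0 in 15 cells leaves much room. Fgf8 exceeded 5 CPM in 1 of these 9 AFX6 cells and in 3 of these 6 AF32 cells, against 2 of 57 and 39 of 74 of the remaining cells. Flrt3 exceeded it in 3 of the 6 AF32 cells against 7 of 74, with 68.3 against 18.8 CPM. Apela gave 107 against 39.9 CPM and Cdh2 64.8 against 36.5 CPM in AF32, while Fgf8 gave 26.8 against 69.2 CPM. These are values of 6 cells of 1 line, with no test. The AF32 cell with most Eomes, at 118 CPM, held 607 of the 2079 Eomes counts of AF32. It gave 0.974 CPM of Otx2 and 144 CPM of Pou5f1, against 111 and 540 CPM over the AF32 cells with 20 CPM of Eomes or less. It also gave 139 CPM of Pdgfra, a gene of the streak and endoderm lists, and had the highest streak sum of the 6 cells, 531 CPM. What kind of cell it is was not tested. The summed streak level was 45.4 CPM in the 9 AFX6 cells against 47.8 CPM in the others. In AF32 it was 307 CPM in the 6 cells, which ran from 0.935 to 531 CPM, against 230 CPM in the others, which ran from 0.256 to 2606 CPM. The cell at 2606 CPM was the one with 2369 CPM of T. Without it the summed streak level over the remaining 79 AF32 cells was 195 CPM. Over all kept cells, rho of the sum with Eomes was 0.20 in AFX6 and 0.26 in AF32, where most cells had 1 CPM of Eomes or less.

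**Figure D4:**
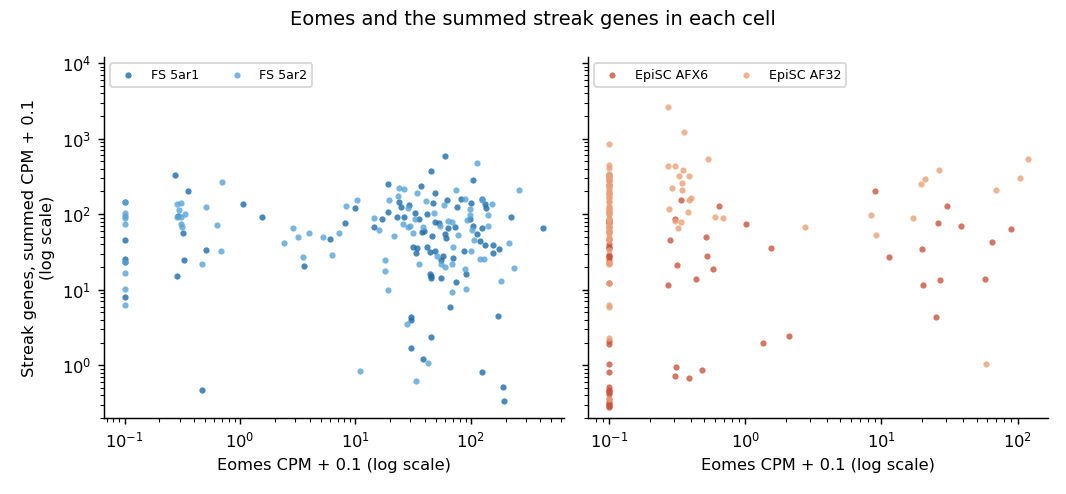
Summed CPM plus 0.1 of the 18 counted streak genes against Eomes CPM plus 0.1 in each kept cell, both on log axes, with FS lines on the left and EpiSC lines on the right. Many AF32 cells lie above the rest on the vertical axis (235 CPM over the line, against 79.4, 80.6 and 47.5 CPM in 5ar1, 5ar2 and AFX6). Without the AF32 cell with most T, the other 79 AF32 cells gave 195 CPM. In each line the cells with much Eomes overlap those with little.

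Several genes of the formative epiblast were, like Eomes, higher in both FS lines than in both EpiSC lines. Of the 18 pluripotency and formative genes listed, all reached 5 CPM in any line, and 6 met the rule (33.3%), 5 as higher and 1 as lower in FS lines. Their median log2 ratio on log2(CPM + 1) was 0.99, against -0.06 over all genes. The list was drawn up with FS cells in mind and is no independent support. Pou3f1 gave 64.3, 33, 3.83 and 8.27 CPM in 5ar1, 5ar2, AFX6 and AF32, and Dnmt3b, the de novo DNA methyltransferase, gave 2243, 1434, 493 and 616 CPM. Lin28a, which blocks let-7 processing, and Dppa4 also met the rule. Nanog was lower in FS lines, at 28.5, 33.5, 159 and 400 CPM. Sall4 and L1td1, both genes of pluripotent cells, were higher in both FS lines without meeting the rule, at 190, 190, 39.3 and 97.6 CPM and at 351, 272, 30.9 and 197 CPM. Zic2, Tcf7l1 and Sox2 were also higher in both FS lines and missed the rule. Utf1, Zic5, Dnmt3a, Etv4 and Etv5 had ratios of the FS to the EpiSC mean between 0.859 and 1.1. For Utf1 this mean joins EpiSC lines that lay far apart. In cells with 20 CPM of Eomes or less, Utf1 gave 712, 622, 1059 and 306 CPM in 5ar1, 5ar2, AFX6 and AF32. Otx2, which gave 175, 178, 118 and 110 CPM, was higher in both FS lines by less than 2-fold.

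Most markers of other tissues in which Eomes acts were low. Of 14 trophoblast genes listed, 13 were in the table and 5 reached 5 CPM in any line. Elf5, a defining trophoblast stem cell gene, was under 0.01 CPM in all lines, and Esrrb, Gata3 and Tead4 stayed under 2 CPM. Ascl2, of the trophoblast and a Wnt target, met the rule as higher in FS lines at 19.1, 20.1, 3.47 and 2.4 CPM. Ets2, Bmp4 and Krt7, which are not restricted to the trophoblast, gave at most 24.4, 7.58 and 6.0 CPM, and none met the rule. Hand1 stood at 23.5 CPM in 5ar1, with 32 of 90 cells above 5 CPM, and at 0.0276, 0.198 and 0.261 CPM in the other lines. The summed trophoblast level was 71.0, 48.8, 42.5 and 45.5 CPM, and its rho with Eomes was 0.080 in 5ar1 and 0.076 in 5ar2. Of 16 extraembryonic endoderm markers, 12 were in the table and 3 reached 5 CPM in any line. Apoe, a lipid carrier of many tissues, made up most of the summed level of 178, 227, 1718 and 572 CPM, and Gata4, Gata6, Sox17 and Foxa1 stayed under 1 CPM. Apoe met the rule as lower in FS lines, at 168, 209, 1711 and 553 CPM, and the sum had a rho with Eomes of -0.25 in 5ar1 and -0.12 in 5ar2. Dab2 and Rbp4 reached at most 6.8 and 8.83 CPM, with overlapping groups. Of 12 neural genes, 11 were in the table and 5 reached 5 CPM, and their sums of 174, 174, 125 and 180 CPM came mostly from Nes and Ncam1. Hesx1, a gene of the anterior neural plate and also of the epiblast, met the rule as higher in FS lines, at 2.6, 29.8, 0 and 0.0141 CPM. Sox1 and Pax3 reached 8.36 and 7.90 CPM in AF32 and stayed under 3 CPM elsewhere. The neural sum had a rho with Eomes of -0.042 in 5ar1 and -0.043 in 5ar2. How far these markers bear on Eomes was not tested.

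No gene followed Eomes closely between FS cells. Spearman's rho with Eomes CPM was computed over the 90 cells of each FS line for 9859 genes that averaged 5 CPM or more and had a count in at least 25% of the cells of both lines. At the fixed limit of 0.3 in both lines 0 genes followed Eomes (0%) and 0 opposed it at -0.3 or less (0%). A single line gave 30 genes at 0.3 or more in 5ar1 (0.304%) and 70 in 5ar2 (0.710%). The standard deviation of rho over all genes was 0.108 in 5ar1 and 0.115 in 5ar2. The highest single values were 0.41 for Itga6 in 5ar1 and 0.45 for Cwc22 in 5ar2, and over all genes the medians were 0.019 and 0.025. The cells of a line are not independent replicates and the counts are sparse at this level, so these values are descriptions with no p.

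Genes picked in one FS line carried over to the other only weakly, and none of them reached 0.3 there. The 50 genes with the highest rho in 5ar1, at a median of 0.31 there, had a median of 0.046 in 5ar2, where all genes had 0.025. The 50 genes picked in 5ar2, at a median of 0.34 there, had a median of 0.078 in 5ar1, where all genes had 0.019. Of these, 38 of 50 and 34 of 50 were above 0 in the second line, against 58.6% and 56.6% of all genes. Across the 9859 genes, the rhos of the lines correlated at r = 0.13, with genes that are not independent replicates.

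**Figure D5:**
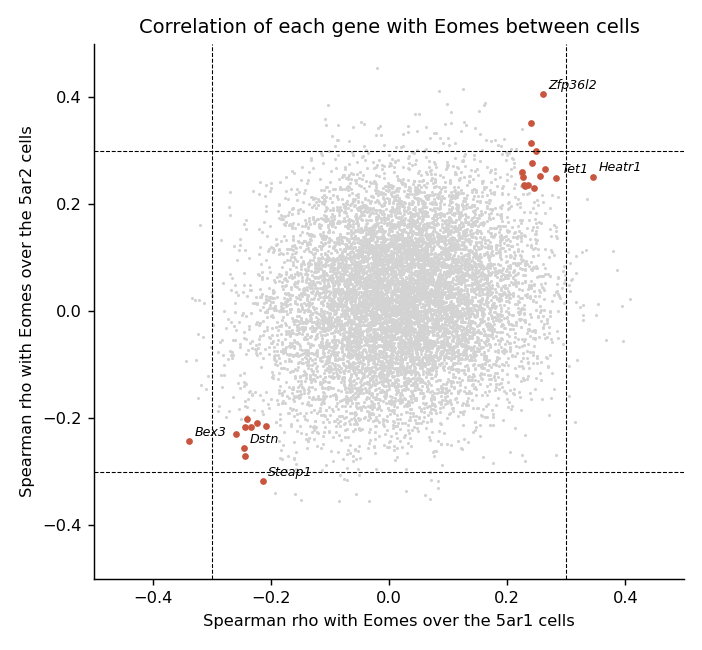
Spearman's rho with Eomes for each of 9859 genes over the cells of 5ar1 (horizontal) and 5ar2 (vertical), with dashed lines at 0.3 and -0.3. The 15 genes highest and the 10 lowest by the smaller rho are in red, and no gene lies in the upper right or lower left corner beyond both lines.

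The 15 genes at the top by the smaller of their rhos lay between 0.23 and 0.26. Zfp36l2, an RNA decay factor, had 0.26 in 5ar1 and 0.41 in 5ar2, and its mean level was 31.2, 22.6, 7.97 and 5.23 CPM in 5ar1, 5ar2, AFX6 and AF32. Tet1, the methylcytosine dioxygenase, had 0.28 and 0.25, and Heatr1, a nucleolar protein gene, had 0.35 and 0.25. Pdp2, Pcbp1, Socs6, Rnf168, Pim2, Prpf31, Mcm10, Ctbp2, Cdc25a, Miga2, Enox2 and Tmpo made up the rest. Mcm10 and Cdc25a act in DNA replication and cell cycle entry. In the EpiSC lines, which had no part in the ranking, the same 15 had medians of -0.0076 in AFX6 and -0.038 in AF32, with 7 and 5 of them above 0. There 51 of 66 and 69 of 80 cells had 1 CPM of Eomes or less. The rhos of these lines rest on few cells, so medians near 0 cannot show whether the genes behave differently in FS cells.

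The 10 genes at the bottom lay between -0.25 and -0.20. They were Dstn, an actin-severing factor, Fgfbp1, Bex3, Myl12b, Prnp, Speg, Steap1, Lats2, a Hippo pathway kinase, Parg and Rps3, a ribosomal protein gene. Bex3 had -0.34 in 5ar1 and -0.24 in 5ar2. Myl12b was counted here under an identifier whose gene model overlaps a second one of the same name, so reads could be split between them. In AFX6 and AF32 the 10 had medians of -0.022 and 0.0084.

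Members of the fixed lists were weak as well. Dnmt3b had a rho of 0.044 in 5ar1 and 0.37 in 5ar2, Otx2 had 0.29 and 0.043, and Tcf7, a Wnt effector, had 0.22 and 0.34. Of the 17 formative genes that passed the filter, 0 reached 0.3 in 5ar1 and 2, Dnmt3b and Utf1, in 5ar2. The sum of that list had a rho of 0.22 in 5ar1 and 0.43 in 5ar2, beside rhos of Eomes with the number of detected genes of 0.16 and 0.24, whose part in this was not tested. The Nodal genes reached at most 0.25 in 5ar1 and 0.28 in 5ar2, and Nodal itself had -0.16 in both.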

How the data were processed

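The libraries were Smart-seq2 libraries of 384 single mouse cells, read as 101-base pairs. Per the labels and the study's methods, the authors aligned them with STAR 2.7.3a to GRCm38.p6 and counted uniquely mapped reads per Ensembl gene with featureCounts 2.0.0. The deposited raw table holds whole-number counts of 31617 genes, not normalized. A second deposited table holds depth-corrected values of 23574 genes in the 326 kept cells, whole numbers that are treated here as a score and used only as an alternative.

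Groups came from the sample titles. Counts were scaled to CPM per cell, and line levels are summed counts over summed totals. Gene models were those of GENCODE M21 (GRCm38). The members and lists were chosen with earlier results of these data known. The FS and EpiSC lines were compared with edgeR 4.0.16 (TMM, quasi-likelihood, Benjamini-Hochberg adjustment) on line sums, which measures only the spread between 2 lines a group. DESeq2 1.42.0 and limma 3.58.1 were alternatives. The Poisson intervals treat each read as a separate count. The libraries carry no identifiers that would tell molecules from PCR copies, so these intervals can be too narrow even for counting error. The Clopper-Pearson intervals cover the draw of cells only. Genes named for their correlation with Eomes were the 15 highest and 10 lowest by the smaller of the FS rhos, and listed genes were named where they reached 5 CPM in any line. A few others, such as Mixl1, Gsc, Axin2 and defining markers near 0, were named after their values were seen. A gene of the streak list and one of the formative list are not reported here and are left out of those lists' counts and sums. Scripts were tested on simulated data, where the edgeR test missed 4-fold changes at the dispersion of the real lines. Its lack of calls here therefore says little about which genes differ. Total depth per kept cell was between 3022666 and 6686007 counts. Doublets were not searched for, since 1 cell was sorted into each well.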

Additional observations from a re-analysis of the deposited data

How the results depend on the processing

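The FS to EpiSC ratio of Eomes lay between 7.73 and 10.0 under 12 alternatives: other depth limits, all cells, mean CPM over cells, the authors' depth-corrected values, TMM and DESeq2 scaling, each line left out in turn (7.73 to 9.83), and cells with few detected genes left out (10.0, chosen after seeing the data). The share of cells above 20 CPM lay between 73.3% and 75.3% in 5ar1, 55.3% and 60.0% in 5ar2, 12.1% and 13.6% in AFX6, and 3.64% and 10.0% in AF32 over 5 alternatives, thinning included. The number of genes called between FS cells and EpiSCs was 0 in all alternatives but DESeq2, which called 874 higher and 932 lower, and between 0 and 0 with each line left out. Those fits leave 1 line in a group, which is assumed to vary like the other group, and a count of 0 there says nothing about stability. The cause of the difference between DESeq2 and edgeR was not tested.

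The count of genes that followed Eomes in both FS lines rose from 0 to 46, with 13 opposing it, at a rho of 0.2. It was 1 with Pearson's r on log2(CPM + 1) (Tcof1, with 1 opposing, Myl12b), 1 with partial rho given depth and detected genes (Gm28661), and 2 without cells with few detected genes (Heatr1 and Zfp36l2). On log2(CPM + 10), 1 gene opposed it (Tgfb1i1). The remaining alternatives gave 0. Genes picked in 5ar1 and read in 5ar2 had medians between 0.014 and 0.076, and those picked in 5ar2 between 0.052 and 0.098. Of the 25 named correlations none changed sign, while Zfp36l2 fell to 0.15 with Pearson's r on log2(CPM + 1) and Lats2 moved to -0.094 on log2(CPM + 10). The call of T as lower in FS lines ended without 1 AF32 cell, an alternative chosen after seeing the data.

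No paired analysis was possible because the numbers in the labels only name cells within a line. Depth limits the low values: 3 counts equal about 0.6 CPM, and a count of 0 in 66 to 90 cells allows shares of up to 3.33% to 4.55%, taken as 3 cells of the total. Leaving out 1 FS line leaves no second line in which to read correlations.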
